A study of Mus musculus with 53 samples.

Results

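Imprinted genes are expressed mainly from the allele of 1 parent, and several of them are among the most abundant transcripts of the adult brain. The group described here was fixed by name as Meg3, Rian, Peg3, Ndn, Snrpn, Impact, Sgce, Magel2 and Ube3a. Rows of the count table with these symbols were taken, which gave 8 of the 9 genes among 12372 genes in all. Snrpn is not analysed here. Levels were compared between 4 brain regions, and between SCA3 and wild-type mice in each region.

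SCA3 mice were hemizygous MJD84.2 animals, in which human ATXN3, with its own promoter and a long CAG repeat, is expressed in every tissue beside the mouse gene. They serve as a model of spinocerebellar ataxia type 3. The controls were wild-type mice without the transgene. All mice were male, of the C57BL/6 strain, untreated and aged 74 to 77 weeks, and all had been through motor tests earlier in life. RNA sequencing gave 53 libraries from 14 mice (8 wild-type and 6 SCA3). For wild-type there were 8 brainstem, 7 cerebellum, 7 cortex and 8 striatum libraries, and for SCA3 6, 6, 6 and 5. The SCA3 mice were lighter (31.1 ± 2.55 g, SD, n = 6, against 43.4 ± 5.61 g, n = 8), so genotype and body weight cannot be told apart. No label says which mice shared a litter.

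Imprinted genes lie in clusters in which differential DNA methylation of a control region, set in the germ line, decides which parental copy is read. Meg3 and Rian are long noncoding RNAs read from the maternal copy of the Dlk1-Dio3 cluster, and Rian carries a large set of small nucleolar RNAs. Peg3 is a paternally expressed zinc finger protein. Ndn (necdin) and Magel2 are paternally expressed MAGE family proteins from the region that is lost in Prader-Willi syndrome, and in the adult Magel2 is best known from the hypothalamus. Ube3a lies at the edge of the same region, encodes a ubiquitin ligase, and is read from the maternal copy in neurons, where the antisense transcript Snhg14 silences the paternal one. Impact is a paternally expressed inhibitor of the kinase GCN2, and Sgce encodes epsilon-sarcoglycan, whose loss in humans causes myoclonus-dystonia. These counts did not separate the parental alleles, so imprinting itself was not measured.

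On GRCm38, Meg3 spans chr12:109541001-109571726 and Rian chr12:109603940-109661716, both on the plus strand. Chromosome 7 holds Peg3 (chr7:6703892-6730431, minus strand), Ube3a (chr7:59228750-59311536, plus strand), Ndn (chr7:62346569-62350262, plus strand) and Magel2 (chr7:62377010-62381640, plus strand). Sgce lies at chr6:4674350-4747207 on the minus strand. The libraries and the counting used no strand. Exons of Ube3a share 1803 bases, 16.5% of its exon length, with Snhg14 on the other strand, and exons of Meg3 share 1228 bases (7.83%) with the antisense gene Gm26906, so reads from these stretches cannot be assigned to a strand. Exons of Peg3, Ndn, Impact, Sgce and Magel2 overlapped no other annotated gene.

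Start-site sequences are shown for 5 members whose levels are compared most closely below, namely Meg3 and Rian, which share a cluster, and Ndn, Magel2 and Peg3, which varied together between libraries. Each is the 250 bases before a RefSeq start on GRCm38.p6 (for Meg3, the upstream one), written 5′ to 3′ on the strand of the gene. Capitals mark the cAMP response element (TGACGTCA) and the NRF1 core (GCATGCGC), searched on both strands together with a YY1 core (GCCATCTT).
Meg3, chr12:109540746-109540995, plus strand: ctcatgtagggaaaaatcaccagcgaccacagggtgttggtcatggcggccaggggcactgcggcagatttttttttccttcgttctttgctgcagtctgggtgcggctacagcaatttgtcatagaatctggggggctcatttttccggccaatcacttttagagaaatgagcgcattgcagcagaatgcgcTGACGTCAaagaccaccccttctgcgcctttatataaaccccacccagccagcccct
Rian, chr12:109603695-109603944, plus strand: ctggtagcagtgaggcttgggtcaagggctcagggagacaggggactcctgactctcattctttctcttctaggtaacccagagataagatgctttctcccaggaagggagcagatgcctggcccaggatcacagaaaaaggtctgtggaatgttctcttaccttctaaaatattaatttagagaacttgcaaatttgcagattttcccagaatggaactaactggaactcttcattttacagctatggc
Ndn, chr7:62348027-62348276, plus strand: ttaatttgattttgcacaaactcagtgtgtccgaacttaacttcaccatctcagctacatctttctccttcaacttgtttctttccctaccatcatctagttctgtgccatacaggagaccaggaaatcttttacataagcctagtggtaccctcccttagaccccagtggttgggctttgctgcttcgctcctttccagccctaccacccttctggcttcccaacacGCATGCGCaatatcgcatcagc
Magel2, chr7:62376729-62376978, plus strand: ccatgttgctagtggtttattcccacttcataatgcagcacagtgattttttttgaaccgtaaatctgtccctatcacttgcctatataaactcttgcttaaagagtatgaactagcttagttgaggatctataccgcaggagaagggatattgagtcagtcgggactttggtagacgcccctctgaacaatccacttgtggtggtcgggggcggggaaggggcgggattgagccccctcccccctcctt
Peg3, chr7:6730420-6730669, minus strand: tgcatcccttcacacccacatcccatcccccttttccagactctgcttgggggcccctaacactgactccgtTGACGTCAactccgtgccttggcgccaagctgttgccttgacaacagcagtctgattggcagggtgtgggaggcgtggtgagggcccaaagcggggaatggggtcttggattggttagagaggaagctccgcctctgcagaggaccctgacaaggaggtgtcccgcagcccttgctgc

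The cAMP response element stood 57 bases before the printed start of Meg3 and 178 bases before that of Peg3. Of 32851 mouse start-site windows of this length, 1.55% held one. The NRF1 core stood 22 bases before the start of Ndn, and 2.26% of windows held one. The YY1 core, held by 1.56% of windows, was found 217 bases before the start of Ube3a and in none of the windows printed. The Rian window held 0 CG dinucleotides, the Ndn window 5, the Magel2 window 7, the Peg3 window 8 and the Meg3 window 10, against a median of 6 over all windows. A further RefSeq start of Meg3, with its window at chr12:109545148-109545397, is not printed. That window held 0 CG dinucleotides and 0 cAMP response elements. The start of Rian is thus the one start among those printed without a CG dinucleotide, but Meg3 has such a start too. The Rian start lies downstream of Meg3 on the same strand. A match of letters does not show a bound site.

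Levels were compared between genes only per length, as counts-per-million (CPM, scaled by TMM) divided by the exon length in kilobases (RPKM). Meg3 was the highest member in all 4 wild-type regions, from 317 ± 33.0 RPKM (SD, n = 7) in cerebellum to 518 ± 110 RPKM (SD, n = 8) in striatum. It took between 0.413% and 1.06% of all counts of a library and ranked between 1 and 5 of 12372 genes by count. Impact ran from 58.8 ± 13 RPKM in cerebellum to 132 ± 26.5 RPKM in brainstem, and Peg3 from 45.5 ± 17.1 RPKM in cortex to 72.9 ± 11.7 RPKM in brainstem. Ndn, a gene of 1 exon, had 65.9 ± 17.3 RPKM in brainstem and 40.8 ± 9.04 RPKM in cerebellum over the 3694 bases of its GENCODE exon, and 147 ± 38.7 and 91.2 ± 20.2 RPKM over the 1652 bases of its RefSeq span, so its place among Impact and Peg3 depended on the length used. Rian lay between 31.2 and 40.2 RPKM, Sgce between 14.3 and 17.8 RPKM and Ube3a between 8.5 and 11.8 RPKM over the regional means. Magel2 had 0.449 ± 0.358 RPKM in cerebellum and 4.29 ± 3.34 RPKM in striatum and was the lowest member with these lengths. With all GENCODE exons of Sgce (10612 bases in place of 1878), Sgce was lower than Magel2 in cortex (2.52 against 3.37 RPKM) and striatum (3.14 against 4.29 RPKM), while Meg3 stayed the highest member in every region.

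Wild-type regions differed for 7 of the 8 members at a false discovery rate (FDR) below 0.05 in a joint edgeR likelihood ratio test. Nearly all genes did so, 93.0% of those tested, and the share of members is near that background. Ndn was the exception (FDR 0.123). In SCA3 mice the same test gave 7 of 8 members, against 92.1% of all genes, and here Ube3a was the one that missed the threshold (FDR 0.603).

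Meg3 was lower in cerebellum than in each other region. Wild-type levels, in CPM, had a lowest, median and highest value of 4201, 5087 and 5568 in cerebellum, 6004, 7657 and 10004 in brainstem, 6217, 8226 and 9166 in cortex, and 5980, 8057 and 10286 in striatum. No cerebellar library reached the lowest library of another region. Against brainstem the log2 difference of cerebellum was -0.67 ± 0.11 (SE, FDR 4.13e-09) in wild-type and -0.89 ± 0.12 (FDR 1.74e-12) in SCA3 mice. Brainstem, cortex and striatum did not differ from each other beyond their spread in either genotype, with FDR from 0.358 to 0.952.

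Rian also had its lowest mean in cerebellum and its highest in striatum, over a narrower range. Wild-type means were 568.1 ± 62.5 CPM (SD, n = 7) in cerebellum, 645 ± 56.0 in brainstem (n = 8), 703 ± 26.6 in cortex (n = 7) and 734 ± 79.8 in striatum (n = 8). Cerebellum was below each other region, and striatum was above brainstem (log2 difference 0.19 ± 0.07, FDR 0.016). Striatum and cortex were neighbours in this order without a difference beyond their spread in wild-type (0.06 ± 0.07, FDR 0.546). In SCA3 mice striatum stood above cortex (0.25 ± 0.09, FDR 0.0151).

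Impact and Peg3 were highest in brainstem. Impact had wild-type means of 497 ± 99.6 CPM in brainstem, 362 ± 121 in cortex, 368 ± 97.1 in striatum and 221 ± 48.8 in cerebellum, and cerebellum was below brainstem by 1.17 ± 0.17 on the log2 scale (FDR 5.23e-11). Cortex and striatum did not differ for Impact beyond their spread (FDR 0.929). Peg3 had 634 ± 101 CPM in brainstem, 501 ± 39.1 in cerebellum, 419 ± 105 in striatum and 395 ± 149 in cortex, and only the differences of cortex and striatum from brainstem passed the threshold (FDR 9.72e-05 and 0.000406). For Peg3, cerebellum and brainstem missed it at FDR 0.0538.

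Magel2 was the member with the widest range between regions and within them. In wild-type cerebellum it ran from 0.296 to 4.06 CPM with a median of 2.17, and in wild-type brainstem from 8.12 to 15.5 CPM with a median of 9.49. Cerebellum was lower than brainstem by a log2 difference of -2.33 ± 0.64 (FDR 0.00108), and lower than cortex and striatum (FDR 8.98e-05 and 1.09e-05). Wild-type cortex ran from 0.919 to 37.2 CPM and wild-type striatum from 2.36 to 39.2 CPM, so that these groups overlapped all others. Ndn, its neighbour on chromosome 7, was lower in wild-type cerebellum than in brainstem (151 ± 33.4 against 243 ± 63.9 CPM, FDR 0.0338), and its other 5 regional differences missed the threshold.

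Sgce was steady by comparison, with wild-type means between 26.8 and 33.4 CPM. It was the only member called between wild-type striatum and cortex (0.32 ± 0.07 on the log2 scale, FDR 2.4e-05). The same difference of Sgce in SCA3 mice was 0.27 ± 0.08 (FDR 0.00258), and there Rian was called as well. Ube3a was highest in wild-type brainstem (129 ± 8.93 CPM) and lowest in wild-type cortex (93.1 ± 22.0 CPM), a log2 difference of -0.47 ± 0.10 (FDR 2.38e-05). In SCA3 mice the same difference was -0.05 ± 0.12 (FDR 0.73). The test of whether the genotype difference of Ube3a depends on region gave an edgeR FDR of 0.498, so this change of the order was not past the threshold.

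Counted over the 8 members, 6 differed between wild-type cerebellum and brainstem (72.6% of all genes did), 4 between cortex and brainstem (65.4%), 4 between striatum and brainstem (64.2%), 5 between cortex and cerebellum (69.7%), 5 between striatum and cerebellum (69.5%) and 1 between striatum and cortex (34.4%). These counts were near or below the background of regional differences, and a difference from it was not tested. With the mouse as a block in the wild-type libraries alone, all 6 counts were the same.

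**Figure D1:**
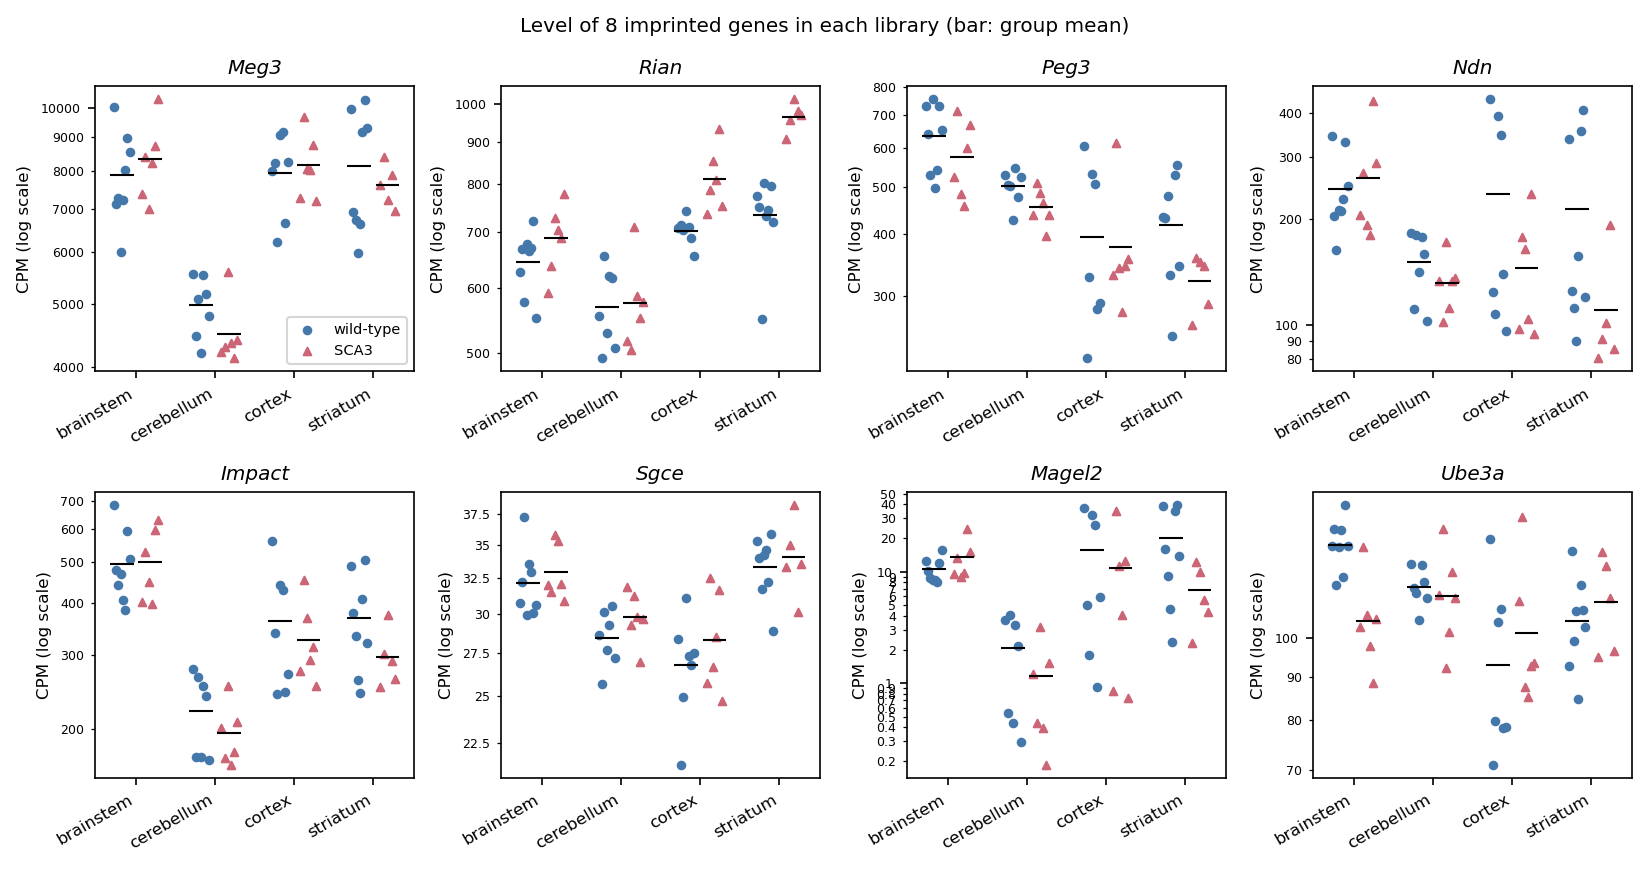
CPM on a log axis in each of the 53 libraries, by region, for the 8 imprinted genes (circles, wild-type; triangles, SCA3; bar, group mean). All 5 SCA3 striatal libraries sit above all 8 wild-type ones for Rian, cerebellum is low for Meg3, Impact and Magel2, and Magel2 and Ndn are spread widely in cortex and striatum.

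The question of the genotype comparison is which transcripts differ in the brains of aged SCA3 mice. Rian rose in SCA3 striatum and was the only member called in any region. The 8 wild-type striatal libraries had a lowest value of 551, a median of 748 and a highest value of 803 CPM. The 5 SCA3 libraries stood at 907, 955, 969, 979 and 1013 CPM. The groups did not overlap, as was the case, with SCA3 higher, for 0.242% of all genes in striatum. The log2 fold change was 0.39 ± 0.08 (SE, edgeR FDR 0.00029, 95% interval 0.23 to 0.55), a ratio of means of 1.32.

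In striatum 1 of 8 members was called, against 7.54% of all genes. In brainstem (background 1.92%), cerebellum (0.0647%) and cortex (0.154%) 0 of 8 were called by edgeR; 1 member in brainstem (Ube3a), 0 in cerebellum and 2 in cortex (Rian and Ndn) had an unadjusted p under 0.05, and the quasi-likelihood test, limma-voom and DESeq2 also called 0 there. The combined test over the 4 regions called 1 member, Rian (FDR 0.000194, background 4.73%). The test of region dependence called 0 members (background 0.218%), with an unadjusted p under 0.05 for 2 of them, Rian (FDR 0.244) and Ube3a (FDR 0.498). The 3 other tools called 0 as well. A difference of the Rian effect between regions is therefore not shown at this threshold.

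Outside striatum, Rian was higher by 0.21 ± 0.08 on the log2 scale in cortex, where the lowest, median and highest values were 655, 708 and 742 CPM in wild-type and 736, 798 and 931 CPM in SCA3 mice. Only the lowest SCA3 library overlapped the wild-type range, and the FDR was 0.744 at an unadjusted p of 0.00928. In brainstem the difference was 0.09 ± 0.08 (FDR 0.645) and in cerebellum 0.02 ± 0.08 (FDR 1).

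Striatal libraries also differed in tissue composition, and these values moved with genotype. The 13 striatal projection neuron markers, all in the table, summed to between 3325 and 13553 CPM in wild-type and between 8546 and 12739 CPM in SCA3 libraries. All 13 were higher in SCA3 striatum with a median log2 fold change of 0.47, and 0 passed the threshold in edgeR, limma-voom or DESeq2 (1 at an unadjusted p under 0.05). The 12 thalamic markers summed to between 391 and 3752 CPM in wild-type and between 379 and 768 CPM in SCA3 libraries, and all 12 were lower in SCA3 striatum, 8 of them past the threshold. No marker of either list was at 0 in a striatal library. Glial markers moved too. All 12 mature oligodendrocyte markers were lower in SCA3 striatum (6 past the threshold, median log2 fold change -0.58), and 11 of 12 astrocyte markers were lower (5 past the threshold, median -0.31). The part of glial content in the striatal differences given here was not tested. The wild-type library with the lowest Rian value (551 CPM, mouse 7267059) had the highest thalamic sum and the lowest projection neuron sum. The wild-type libraries with the highest projection neuron sums (13553 and 13428 CPM) had Rian at 803 and 731 CPM, below every SCA3 library.

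In the striatal libraries alone with a thalamic marker score as covariate, Rian stayed past the threshold (0.34, FDR 0.021). With the projection neuron score as covariate, an alternative chosen after seeing the data, the log2 fold change was 0.33 and the FDR 0.128. Within each series of mouse numbers, as given by their first 4 digits, the SCA3 mean was above the wild-type mean, with ratios of 1.35 in series 7267 (3 wild-type, 2 SCA3), 1.26 in series 9082 (1 and 1) and 1.30 in the largest series (4 and 2). In mice of the largest series alone the FDR was 0.117. Leaving out each mouse in turn left the FDR at or below 0.00291.

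**Figure D2:**
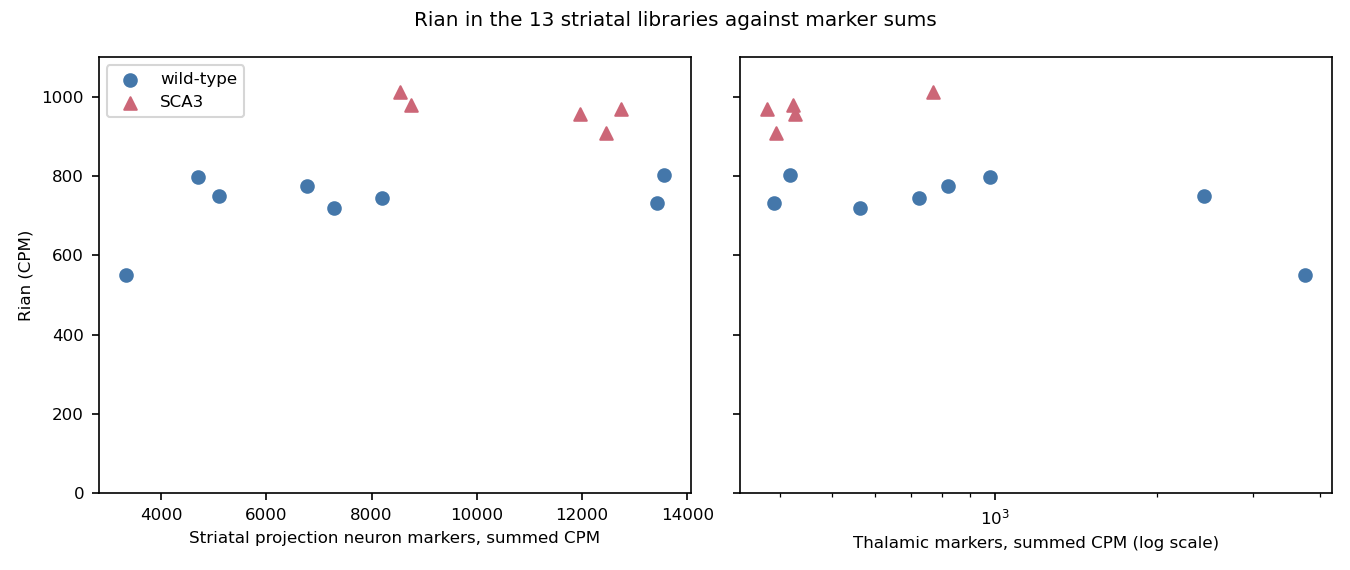
Rian (CPM, from 0) in the 13 striatal libraries against the summed CPM of 13 striatal projection neuron markers (left) and of 12 thalamic markers (right, log axis); circles are wild-type, triangles SCA3. The SCA3 libraries lie between 907 and 1013 CPM, above all wild-type libraries. Wild-type sums reach beyond the SCA3 range on both sides for projection neuron markers (3325 to 13553 against 8546 to 12739 CPM). For thalamic markers they reach beyond it only on the higher side (391 to 3752 against 379 to 768 CPM).

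No neighbour of Rian in its cluster passed the threshold in striatum. Meg3 had a log2 fold change of -0.09 ± 0.12 (FDR 0.672), with wild-type values from 5980 to 10286 CPM and SCA3 values of 6939 to 8407 CPM. Mirg, a noncoding RNA at the far end of the cluster that holds many microRNAs, had 0.12 ± 0.10 (FDR 0.439). Rtl1, a paternally expressed retrotransposon-derived gene, had 0.17 ± 0.19 (FDR 0.622) and Dlk1, a paternally expressed membrane protein, had -1.01 ± 0.77 (FDR 0.458). The intervals of Mirg (-0.06 to 0.31) and Rtl1 (-0.20 to 0.54) overlap that of Rian, as does the wide interval of Dlk1 (-2.53 to 0.50), while that of Meg3 (-0.33 to 0.14) does not. The difference between genes was not tested. In the other regions the log2 fold change of Meg3 ran from -0.15 in cerebellum to 0.08 in brainstem, with SE near 0.12.

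**Figure D3:**
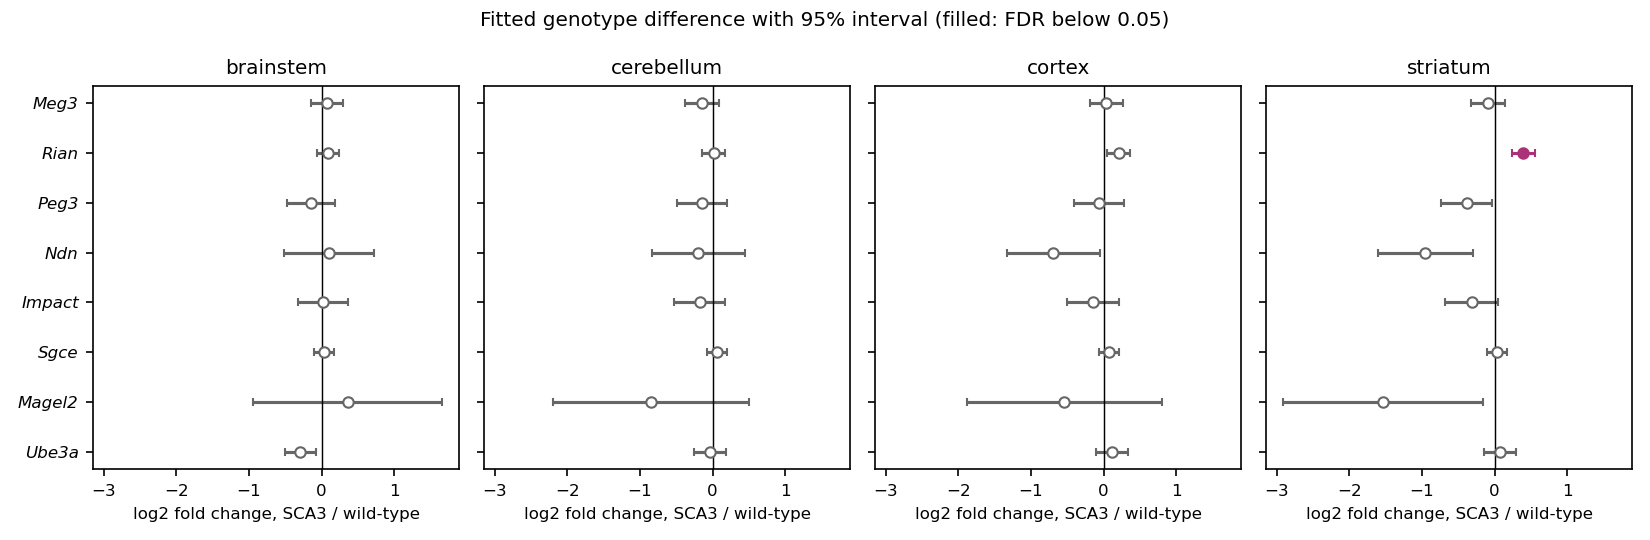
Fitted log2 fold change of SCA3 over wild-type for each member in each region, with 95% intervals; the filled point has an FDR below 0.05. Rian in striatum (0.39) is the only filled point, and the intervals of Magel2 and Ndn are the widest.

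Ube3a was lower in SCA3 brainstem without passing the threshold in the fit over all libraries. Wild-type values had a lowest, median and highest of 116, 128 and 143 CPM, and SCA3 values of 88.6, 104 and 128 CPM. Of the 6 SCA3 libraries, 5 were below all wild-type ones and the highest, from mouse 7267056, was inside the wild-type range. The log2 fold change was -0.30 ± 0.11 (FDR 0.157, 95% interval -0.51 to -0.08). The call depended on the samples in the fit: the brainstem libraries alone gave FDR 0.00837, mice of the largest series alone gave 0.0316, and leaving out mouse 7267056 gave 0.0257. The ratio of means within the series was 0.92, 0.83 and 0.74 for 7267, 9082 and the largest series.

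Snhg14, whose exons overlap Ube3a on the other strand, had a log2 fold change of -0.25 ± 0.15 in brainstem (FDR 0.467). Across all 53 libraries the deviations of Ube3a and Snhg14 from their group means had a Pearson r of 0.79, and these libraries share mice and unstranded counting. In brainstem all 12 astrocyte markers and all 12 mature oligodendrocyte markers were lower in SCA3 mice, 5 and 4 of them past the threshold, with a median log2 fold change of -0.37 and -0.54, while the 12 neuronal markers had a median of -0.05. The thalamic marker Tcf7l2 was 121 and 158 CPM in brainstem of wild-type mice 7267055 and 9083373, and at most 16.2 CPM in the others. It was 92.3, 141 and 162 CPM in SCA3 mice 7267056, 9083514 and 9083515, and at most 8.16 CPM in the others. Mature oligodendrocyte markers summed to 10786 to 11822 CPM in these wild-type libraries against 18074 to 22362 CPM in the others. In these SCA3 libraries the sum was 9788 to 11372 CPM against 13567 to 16463 CPM. The part of cell composition in the Ube3a difference was not tested. The RNA integrity number (RIN) was also higher in SCA3 brainstem, with a mean of 7.78 (7.4 to 8) against 7.24 (6.3 to 7.6) in wild-type. With RIN as a covariate, the log2 fold change of Ube3a was -0.30 and its FDR 0.22. In cerebellum, cortex and striatum Ube3a had log2 fold changes of -0.04 ± 0.11, 0.12 ± 0.11 and 0.07 ± 0.12. Fewer cells of a type and less RNA per cell cannot be told apart in such tissue samples.

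Ndn, Magel2, Peg3 and Impact had lower means in SCA3 striatum, and none passed the threshold. Ndn had wild-type values of 90.1, 141 and 409 CPM (lowest, median, highest) and SCA3 values of 80.4, 85.7, 91.4, 101 and 192 CPM. The groups overlapped, the log2 fold change was -0.95 ± 0.33 and the FDR 0.0624. Its mean was higher, not lower, in the SCA3 mouse of series 9082 (ratio 1.12). The FDR fell below 0.05 when mouse 9082857, 9083371, 9083375 or 9083514 was left out (between 0.0166 and 0.0408). It was 0.0495 without the 2 wild-type striatal libraries of highest thalamic sum. These were the 5 calls of Ndn in 29 alternatives. Leaving out other mice gave FDR up to 0.198. The FDR was 0.273 in the striatal libraries alone, 0.281 at RIN of at least 7 and 0.666 in the largest series alone.

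Magel2 in striatum had wild-type values of 2.36, 14.8 and 39.2 CPM and SCA3 values of 2.27, 4.38, 5.53, 9.93 and 12.1 CPM. The log2 fold change of -1.54 ± 0.70 had an FDR of 0.188, and the highest SCA3 library was below the wild-type median. Peg3 differed by -0.38 ± 0.18 (FDR 0.181) and Impact by -0.31 ± 0.19 (FDR 0.307). In cortex the same genes had -0.69 ± 0.33 for Ndn, -0.54 ± 0.69 for Magel2, -0.07 ± 0.18 for Peg3 and -0.15 ± 0.18 for Impact, all at FDR 1. Sgce had log2 fold changes between 0.03 and 0.08 in the 4 regions with SE near 0.07, and the highest bound of the 95% intervals was 0.22.

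Magel2 and Ndn were far higher in a few cortical and striatal libraries than in the rest of their groups. In wild-type cortex, Magel2 was 37.2, 32.3 and 26.0 CPM in mice 7267055, 9083371 and 9083372 and between 0.919 and 5.86 CPM in the other 4. Ndn was 440, 393 and 346 CPM in the same 3 cortical libraries and between 96.3 and 140 CPM in the other 4. In SCA3 cortex the highest Magel2 value, 34.9 CPM, came from mouse 7267056, whose Ndn value was 178 CPM. In wild-type striatum, mice 7267055, 9083372 and 9083373 had Magel2 at 39.0, 35.0 and 39.2 CPM and Ndn at 338, 356 and 409 CPM, above all other striatal libraries for both genes. Impact was also highest in these 3 striatal libraries, at 489, 409 and 508 CPM, but the next at 379 CPM was close. Peg3 had no such gap in wild-type striatum, where it ran from 249 to 554 CPM and stood at 434 CPM in mouse 7267055 and 479 CPM in mouse 7267059.

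Some other imprinted genes varied with Magel2, and others did not. Over the 53 libraries, the deviation of log2 CPM from the group mean of Magel2 had a Pearson r of 0.86 with Impact, 0.72 with Ndn, 0.64 with Peg3, 0.92 with Dlk1, 0.92 with Usp29 and 0.86 with Peg10. Of the 32 other imprinted genes in the table, 15 had an r above 0.5 with Magel2, against 8.62% of all genes. An r below 0 was found for 6 of them, against 6392 of all 12371 other genes. The median r was 0.47 for the 32 and -0.01 for all other genes. Ipw, a noncoding RNA of the Prader-Willi region that Ndn and Magel2 share, had an r of -0.21. It was at 1.25, 1.25 and 1.23 CPM in the 3 wild-type cortical libraries of high Magel2. The median of wild-type cortex was 1.38 CPM, so low Ipw was not confined to these libraries. In SCA3 cortex Ipw ran from 1.31 to 6.35 CPM. Usp29 shares its start region with Peg3 on the opposite strand, and Peg10 lies beside Sgce in the same way. For Usp29 the r with Magel2 was between 0.84 and 0.95 within each of the 4 regions, while for Peg10 it was 0.11 in brainstem and between 0.91 and 0.94 in the other 3. Meg3 and Rian, from the same cluster and strand, had an r of 0.34 over all libraries, with 0.76 in cerebellum and between 0.12 and 0.36 in the other regions, and Meg3 had 0.72 with Impact and 0.73 with Mirg. These libraries share mice and dissections, so the values describe these samples only.

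Of 14 hypothalamic markers, Cartpt (a neuropeptide gene) was the 1 in the table. Its deviations had an r of 0.74 with Magel2, 0.76 with Impact, 0.67 with Meg3, 0.62 with Ndn and 0.48 with Rian. The r was 0.46 with Peg3, 0.25 with Sgce and 0.13 with Ube3a. For Rian it was 0.86 in cerebellum and between 0.11 and 0.43 in the other regions. In cerebellum Cartpt was near the floor, at 0 to 2.58 CPM in wild-type and 0.034 to 3.26 CPM in SCA3 libraries. These cerebellar libraries are part of the r values over all libraries. Cartpt was not higher in 1 genotype past the threshold in striatum (log2 fold change -0.93 ± 0.81, FDR 0.519). With Cartpt as covariate in the striatal libraries alone, an alternative chosen after seeing the data, the log2 fold change was -0.53 for Ndn, -0.48 for Magel2 and -0.16 for Peg3. With the projection neuron score it was -0.71 for Ndn, -0.76 for Magel2 and -0.12 for Peg3. With the thalamic score it was -1.10 for Ndn, -1.47 for Magel2 and -0.25 for Peg3. The part of the dissection border in these values was not tested.

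**Figure D4:**
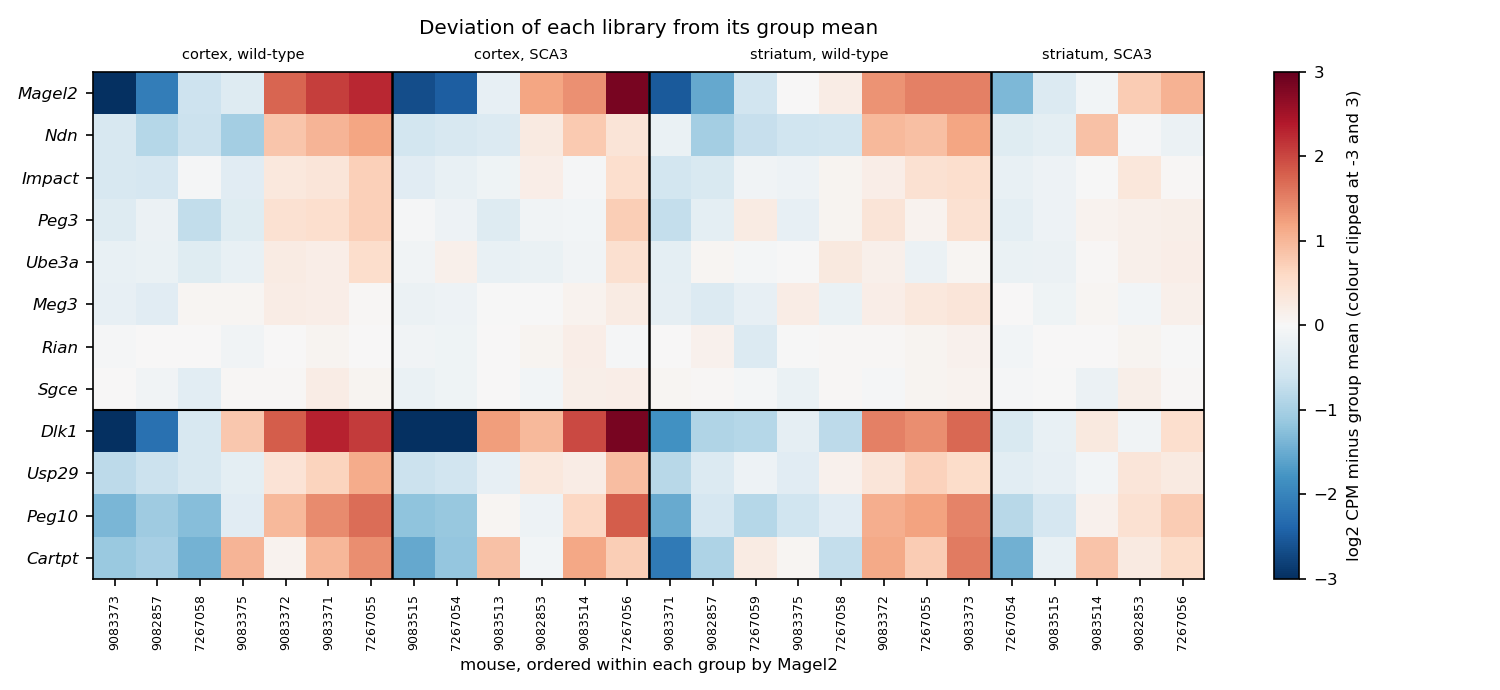
Deviation of log2 CPM from the group mean in the cortical and striatal libraries, ordered within each group by Magel2 (columns, mouse numbers), for the 8 members and, below the line, Dlk1, Usp29, Peg10 and Cartpt. In wild-type cortex and in wild-type striatum, the 3 columns of highest Magel2 are also red for Ndn, Impact, Dlk1, Usp29 and Peg10, while in SCA3 striatum the column of highest Magel2 is not red for Ndn, and Rian and Sgce show little colour.

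By a rule that takes the 3 genes of the whole table with the highest r of such deviations over the 53 libraries, the sets were partly shared, with Tmem130 among those of Magel2, Impact and Ndn. Magel2 was most like Baiap3 (r 0.97), AW551984 (0.95) and Tmem130 (0.94). Impact was most like Gprasp2 (0.96), Gprasp1 (0.95) and Tmem130 (0.95), and Ndn like Nynrin (0.84), Fbxo10 (0.83) and Tmem130 (0.83). Peg3 was most like Clcn5 (0.86), Ubap1l (0.86) and Nap1l5 (0.85), the last a further paternally expressed imprinted gene. Ube3a was most like Usp34 (0.89), Usp9x (0.88) and Rev3l (0.87), and Meg3 like Pnck (0.84), 3110039I08Rik (0.83) and Cers4 (0.82). Sgce was most like Ttc12 (0.84), Sptssa (0.78) and Lrrc1 (0.77), and Rian had the lowest values, with Drc1 (0.71), Sh3gl3 (0.69) and Ccdc30 (0.67).

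Of 47 other genes listed as imprinted, 32 were in the table. In brainstem 1 of the 32 rose, in striatum 1 rose and 2 fell, and in cerebellum and cortex 0 passed the threshold in edgeR, limma-voom or DESeq2 (1 and 0 at an unadjusted p under 0.05). The shares of all genes called were 1.92% in brainstem and 7.54% in striatum, and the counts of 1 and 3 of 32 are near them. Their median log2 fold change was 0.01 in brainstem, -0.02 in cerebellum, -0.04 in cortex and -0.09 in striatum, against medians over all genes between -0.0043 and 0.0028. For the 8 members the medians were 0.06, -0.14, -0.01 and -0.20 in the same order. Of 16 neighbours of the members that are not regarded as imprinted, 0 passed the edgeR threshold in any region, with 1, 1, 0 and 4 at an unadjusted p under 0.05 in brainstem, cerebellum, cortex and striatum, and DESeq2 called 1 in striatum.

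Cdkn1c, a maternally expressed inhibitor of cyclin-dependent kinases, rose in SCA3 brainstem. Wild-type values were 3.81, 7.47 and 9.81 CPM (lowest, median, highest) and SCA3 values 9.34, 14.8 and 24.7 CPM, so that the ranges overlapped at a single SCA3 library. The log2 fold change was 1.16 ± 0.26 (FDR 0.00129), and it was 0.85 ± 0.27 in cerebellum (FDR 0.671), 0.65 ± 0.27 in striatum (FDR 0.117) and 0.15 ± 0.27 in cortex (FDR 1). The combined test gave FDR 3.56e-05. In mice of the largest series alone the brainstem FDR was 0.108 at a log2 fold change of 0.94, and with RIN as a covariate it was 0.00322 (log2 fold change 1.15). An antisense gene overlaps 30.3% of the exon length of Cdkn1c.

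Gnas, a complex locus encoding the stimulatory G protein alpha subunit, fell in SCA3 striatum with a log2 fold change of -0.69 ± 0.15 (FDR 0.000785). Wild-type values were 481, 1044 and 1234 CPM, and SCA3 values were 442, 485, 507, 698 and 740 CPM. Both low wild-type libraries, at 481 and 490 CPM (mice 9083371 and 9082857), were those with the highest projection neuron sums. Kcnk9, a maternally expressed potassium channel, fell by 0.66 on the log2 scale (SE 0.19, FDR 0.0192), and Ppp1r9a, which encodes the actin-binding protein neurabin and lies near Sgce, rose by 0.48 (SE 0.12, FDR 0.00426).

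For these 3 genes the direction was opposite in series 9082, with ratios of means of 1.43 for Gnas, 1.17 for Kcnk9 and 0.80 for Ppp1r9a in 1 mouse of each genotype. None of the 3 passed the threshold in the striatal libraries alone (FDR 0.17 for Gnas, 0.299 for Kcnk9 and 0.248 for Ppp1r9a), where their log2 fold changes were -0.68, -0.66 and 0.48, close to those of the fit over all libraries. With the projection neuron score as covariate their log2 fold changes were -0.22, -0.29 and 0.16. Kcnk9 also missed it in limma-voom, both with a replicate block for the mouse (FDR 0.0765) and with no block (FDR 0.075), and when any of mice 7267054, 7267056, 7267059, 9083372, 9083373, 9083375 or 9083515 was left out (up to 0.134).

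**Figure D5:**
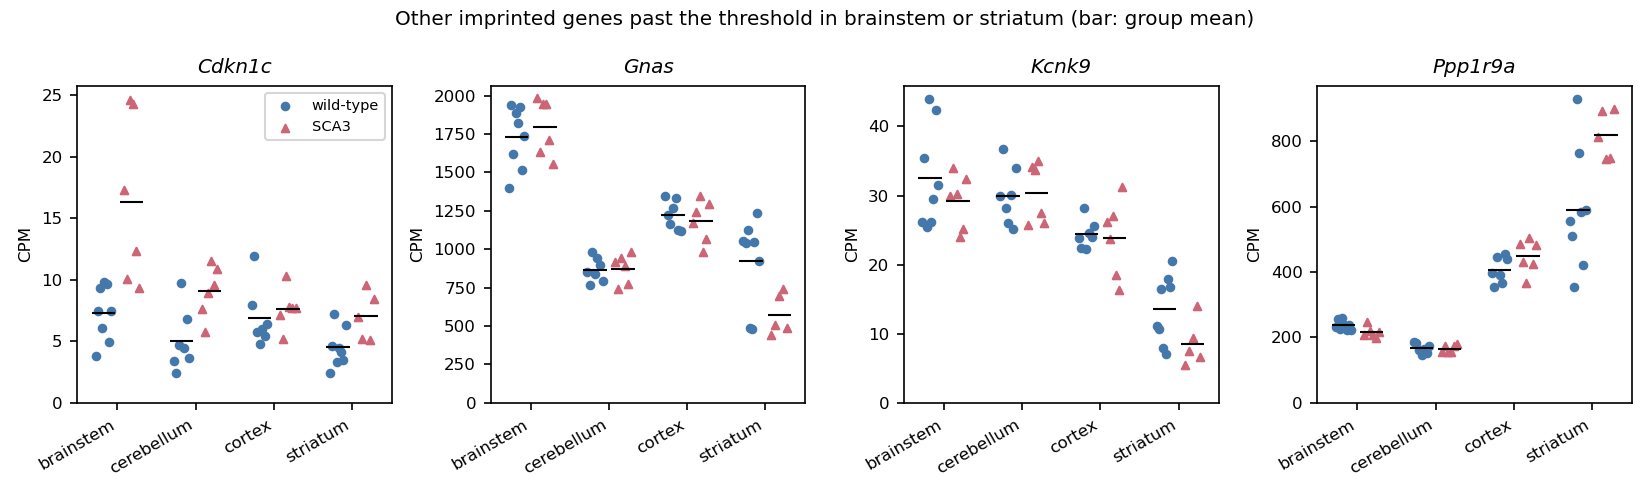
CPM (axes from 0) of the 4 other imprinted genes past the threshold in brainstem (Cdkn1c) or striatum (Gnas, Kcnk9, Ppp1r9a), in each library by region (circles, wild-type; triangles, SCA3; bar, group mean). Wild-type striatum is split for Gnas, with 2 libraries at 481 and 490 CPM among the SCA3 values.

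Among genes next to the members, those of the Peg3 domain were Usp29 and Zim1, those of the Ube3a side Snhg14 and Ipw, and those beside Sgce Peg10 and Ppp1r9a. In striatum Usp29 had a log2 fold change of -0.45 ± 0.27 (FDR 0.314), Zim1 of -0.87 ± 0.49 (FDR 0.291), Ipw of 0.49 ± 0.52 (FDR 0.593) and Peg10 of -0.59 ± 0.43 (FDR 0.428). Of these neighbours only Ppp1r9a passed the threshold in a region in the fit over all libraries. In the brainstem libraries alone, Snhg14 passed it with the thalamic score as covariate, and Usp29 with Cartpt as covariate.

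Library totals ran from 31680939 to 76703758 counts, and every member but Magel2 had at least 711 counts in every library, so counting error was small beside the spread between mice. Magel2 had as few as 10 counts in a cerebellar library. RIN had a group mean between 7.24 and 7.95, and its deviations from those means had an r between -0.10 and 0.15 with those of the members.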

How the data were processed

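Whole-number counts per gene were deposited by the authors, with 1 column per library. Per their methods and processing notes, poly-A libraries without strand information were sequenced as read pairs, trimmed with cutadapt 1.10, aligned to GRCm38 (mm10) with STAR 2.3.0e keeping unique alignments, and counted per RefSeq gene with HTSeq 0.6.1 without strand. Genes above 4 CPM on average were kept. All 53 libraries in 8 groups were fitted here with edgeR 4.0.16 (TMM, likelihood ratio test, the test of the study), with Benjamini-Hochberg adjustment over 12372 genes. Standard errors came from the fitted model, and correlations from log2 CPM with a prior count of 2. The procedure was tested on simulated data. Lengths, positions and overlaps were read from GENCODE for GRCm38, with all transcripts used for Rian, the RefSeq span of Ndn from RefSeq, and start-site sequences from RefSeq (GRCm38.p6). The members, gene lists and tests were chosen with earlier results of these data known. Named genes were the members, other imprinted genes called in a region or next to a member, list markers, and the 3 genes most like each member. Libraries of 1 mouse share an animal: the mean correlation of their deviations from the group means was between 0.0904 and 0.1858 over the region pairs. Alternatives were limma-voom (3.58.1) with and without the mouse as block, DESeq2 1.42.0, quasi-likelihood tests, other scaling, filters, covariates and subsets.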

Additional observations from a re-analysis of the deposited data

Results flagged for a closer look

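A library standing apart from its group by Dixon's test was found in 5 of 96 combinations of gene and group, and chance alone flags about 1 in 20. Rian in wild-type striatum was 551 CPM in mouse 7267059, with the next library at 719 CPM. Ndn in SCA3 striatum was 192 CPM in mouse 9083514, with the next at 101 CPM. Magel2 in SCA3 cortex was 34.9 CPM and Peg3 613 CPM in the same library of mouse 7267056, where the next values were 12.6 and 356 CPM. Meg3 in SCA3 cerebellum was 5593 CPM in mouse 9082853, with the next library at 4404 CPM. For no member did the genotype difference depend on region past the threshold.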

How the results depend on the processing

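Rian in striatum kept its direction in all 29 alternatives, with log2 fold changes from 0.33 to 0.44, and was called in 27 of them. The count of members called in striatum (1 as reported) was 0 when only the largest series of mouse numbers was fitted, 0 with the projection neuron score, 2 without the 2 libraries of highest thalamic sum, and between 1 and 2 when a mouse was left out. In brainstem it was 1 (Ube3a) rather than 0 in the region alone, with or without the thalamic score or Cartpt, and in the largest series alone, and between 0 and 1 when a mouse was left out. The combined count (1) lay between 1 and 2 when a mouse was left out, and that of wild-type striatum against cortex (1) between 1 and 2. Over the members, 28 of 880 combinations of gene, region and alternative changed sign, none of them called. With the mouse as replicate block, counts of members were 0, 0, 0 and 1 in brainstem, cerebellum, cortex and striatum, 1 in the combined test and 7 between wild-type regions. The pairing itself changed no call: Kcnk9 in striatum was lost in limma-voom with and without it (FDR 0.0765 and 0.075).

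Counts of other imprinted genes in brainstem (1) were 2 in the region alone, 3 with the thalamic score, 3 with Cartpt and 0 in the largest series alone. In striatum (3) they were 0 at RIN of at least 7, in the region alone, in the largest series alone and with any marker covariate, 1 without the 2 libraries of highest thalamic sum, and between 2 and 4 when a mouse was left out. In cerebellum (0) they were between 0 and 1. The cause of each change was not tested. Over all genes the striatal count was 933, against 88 in the region alone and 139 at RIN of at least 7. It was between 297 (without mouse 9083515) and 1833 (without mouse 9082857) when a mouse was left out. The brainstem count of 238 rose to 392 in the region alone, 733 with the thalamic score and 685 with Cartpt. It was between 120 (without mouse 9083514) and 309 (without mouse 7267056) when a mouse was left out. The share of all genes called thus moved both ways in both regions. The libraries of series 9082 are 1 mouse per genotype.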

Other observations

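Of the 32 other imprinted genes, 29 differed between wild-type regions in the joint test, a share near the 93.0% of all genes. The following were chosen after their values were seen. Zdbf2 had 15 ± 5.66 CPM in cerebellum (SD, n = 7) against 62.1 ± 9.79 in brainstem and 81.0 ± 25.5 in striatum (n = 8 each), and its joint test over the wild-type regions gave an edgeR FDR of 2.94e-18. Rasgrf1, a guanine nucleotide exchange factor, stood at 280 ± 30.5 CPM in cerebellum against 609 ± 57.9 in brainstem (joint test over the wild-type regions, FDR 7.27e-34). Igf2r, the receptor that clears insulin-like growth factor 2, had its highest mean in cerebellum, at 105 ± 13.5 CPM against 60.6 ± 2.01 in brainstem (joint test, FDR 1.42e-49). Nnat (neuronatin) did not differ between wild-type regions past the threshold (FDR 0.112), with means from 134 ± 61.2 CPM in cerebellum to 242 ± 103 in striatum.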
